A study of Homo sapiens with 9 samples.

Results

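CACNA1G, NEUROG1, RUNX3, SOCS1, CRABP1 and UCHL1 are 6 of the 36337 gene names on the array, and 9 of its 50599 probes carry their names. They were taken by name, on all 9 arrays: every probe that is not a control and whose gene name in the array files is one of these. No measured value entered this rule, but the genes were chosen with earlier results of these data known. Gene expression was measured in RKO, a CIMP-high colorectal cancer cell line, by 1-colour hybridization of total RNA. The control group, siCONT, received control siRNA for 72 h and then ethanol as mock for 24 h. The siUHRF1 group received an siRNA against UHRF1 and the same mock, and the siCONT + TSA and siUHRF1 + TSA groups received 300 nM trichostatin A (TSA) for 24 h after the same siRNAs. Each of these 4 groups has 2 arrays, and in the 2 groups with UHRF1 depletion replicate 1 carried siUHRF1-1 and replicate 2 carried siUHRF1-2. A single array holds RNA of cells grown for 72 h with 5-aza-dC, the nucleoside 5-aza-2′-deoxycytidine, at 1 µM and without siRNA. The sources do not say whether the arrays of a group come from separate cultures, so p-values measure the spread between these arrays, which may be technical.

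The CpG island methylator phenotype (CIMP) is a form of colorectal cancer in which the CpG islands of many promoters are methylated together. Methylation of CACNA1G, NEUROG1, RUNX3 and SOCS1 is used to classify tumours as CIMP, CRABP1 stands in some of the marker panels, and UCHL1 is another gene known to be silenced by methylation in tumours. UHRF1 binds hemimethylated DNA behind the replication fork and brings the maintenance methyltransferase DNMT1 to it. TSA inhibits histone deacetylases, and 5-aza-dC is built into DNA and traps DNA methyltransferases. The comparisons ask which of these genes gained transcript when UHRF1 was lost, when deacetylases were inhibited, when both were done, or with 5-aza-dC.

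The promoters are shown because CG dinucleotides are the sites that DNA methylation uses, and the genes with a called probe are printed. Of the 6 genes, 5 were matched by symbol in RefSeq's promoter table (GRCh38.p14, 35116 windows of 300 bases), and RUNX3 had 2 windows. The 250 bases before each start site follow, 5′ to 3′ on the gene's strand, with each CG in capitals.
RUNX3, chr1:24930277-24930526, minus strand, 33 CG: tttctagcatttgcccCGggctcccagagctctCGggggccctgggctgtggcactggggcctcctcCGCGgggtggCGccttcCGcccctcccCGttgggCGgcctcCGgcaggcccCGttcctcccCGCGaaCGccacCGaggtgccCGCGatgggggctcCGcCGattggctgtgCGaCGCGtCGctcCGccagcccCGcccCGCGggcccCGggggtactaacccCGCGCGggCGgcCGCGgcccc
RUNX3, chr1:24965011-24965260, minus strand, 13 CG: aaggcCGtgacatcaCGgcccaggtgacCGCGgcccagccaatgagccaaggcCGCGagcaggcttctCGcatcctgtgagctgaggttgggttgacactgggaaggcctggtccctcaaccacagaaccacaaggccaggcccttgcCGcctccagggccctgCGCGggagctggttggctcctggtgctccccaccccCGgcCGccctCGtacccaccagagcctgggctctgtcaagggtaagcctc
SOCS1, chr16:11256205-11256454, minus strand, 27 CG: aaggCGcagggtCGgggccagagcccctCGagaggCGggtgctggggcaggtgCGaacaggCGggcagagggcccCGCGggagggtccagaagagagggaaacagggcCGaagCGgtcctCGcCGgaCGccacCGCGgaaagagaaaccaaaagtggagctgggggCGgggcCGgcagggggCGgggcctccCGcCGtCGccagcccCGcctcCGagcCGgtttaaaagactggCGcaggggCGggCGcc
CRABP1, chr15:78340103-78340352, plus strand, 18 CG: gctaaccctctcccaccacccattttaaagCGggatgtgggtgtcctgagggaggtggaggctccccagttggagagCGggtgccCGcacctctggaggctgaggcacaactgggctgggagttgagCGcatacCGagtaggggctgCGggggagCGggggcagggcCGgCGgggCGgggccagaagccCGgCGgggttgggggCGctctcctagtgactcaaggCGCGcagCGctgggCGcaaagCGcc
UCHL1, chr4:41256678-41256927, plus strand, 20 CG: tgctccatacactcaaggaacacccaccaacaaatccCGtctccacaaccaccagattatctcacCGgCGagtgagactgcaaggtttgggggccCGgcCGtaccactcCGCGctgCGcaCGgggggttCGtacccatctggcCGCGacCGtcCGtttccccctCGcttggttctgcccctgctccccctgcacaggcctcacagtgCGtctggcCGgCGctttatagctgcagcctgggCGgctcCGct

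Over the full windows of 300 bases, the number of CG dinucleotides was 38 and 15 in the RUNX3 windows, 35 in NEUROG1, 33 in SOCS1 and 25 in both CRABP1 and UCHL1. The median over all 35116 windows was 14 and the upper quartile 28. As many CG as in the richer RUNX3 window stood in 9.91% of all windows, as many as in SOCS1 in 17.2%, and as many as in CRABP1 and UCHL1 in 32.0%. The poorer RUNX3 window was near the middle of the distribution, since 48.9% of windows had as many. The letters GGGCGG, the GC box that factors of the SP1 family bind, were counted on both strands and found at least once in each of these 6 windows and in 45.0% of all windows.

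**Figure D1:**
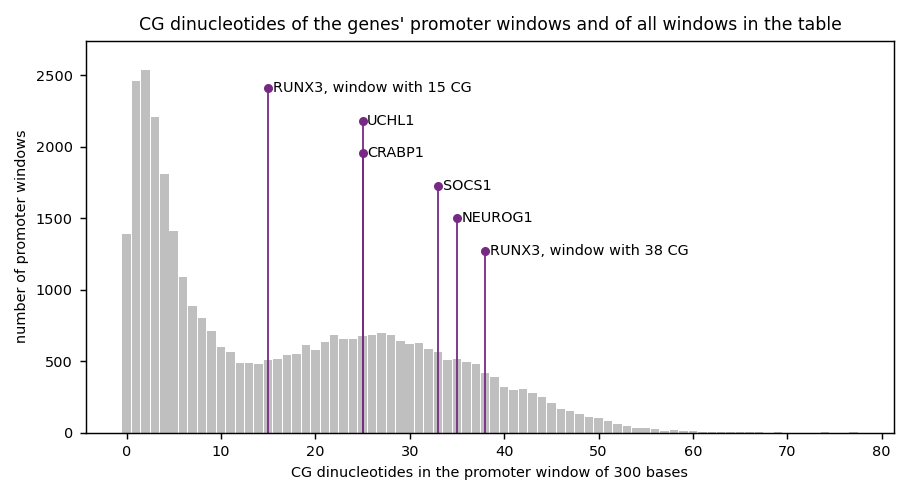
Number of promoter windows (y axis) by the number of CG dinucleotides in their 300 bases (x axis) for all 35116 windows, in grey, with purple lines at the windows of the 5 genes matched. Of the 6 windows, 5 lie at or above 25 CG and the second RUNX3 window lies at 15, where the median of all windows is 14.

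Each of the 9 probes had 1 spot of 60 bases. CACNA1G, RUNX3 and CRABP1 had 2 probes each. The 2 RUNX3 probes lie 1205 bases apart at chr1:25226333-25226392 and chr1:25227538-25227597 (hg19, minus strand), and the 2 CRABP1 probes lie 147 bases apart at chr15:78640361-78640420 and chr15:78640508-78640567 (hg19, plus strand). The UCHL1 probe lies at chr4:41270340-41270399. Exon annotation of hg19 was not used here. The first 30 bases of these 5 probes are shown because the results for RUNX3 and CRABP1 depend on which probe is read.
RUNX3 A_23_P51231: gtacagacagcctgggctggtaaaagtagg
RUNX3 A_33_P3221748: ggcacacacctgtctgtaacctgttttgtg
CRABP1 A_33_P3216869: tcccctgaggaatatgtcatagttctgagc
CRABP1 A_33_P3326483: gctccatagtttggcatttgcacggtttcg
UCHL1 A_23_P132956: tctaacgctttaaatggctactttggtttc

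UHRF1 itself fell on both of its probes in siUHRF1, by 2.47 (standard error 0.14, adjusted p = 0.00238, limma) and 2.34 on the log2 scale. In siUHRF1 + TSA the changes against siCONT were -3.17 and -2.86, and against siUHRF1 -0.70 (adjusted p = 0.0263, limma) and -0.52 (adjusted p = 0.0727, limma). UHRF1 was thus not equally low with and without TSA, and the part of this in the comparisons was not tested. With 5-aza-dC UHRF1 was higher, by 1.00 and 0.98 (adjusted p = 0.00548 and 0.00864, limma). Between the 2 arrays of a group, probes differed by a median of 0.07 to 0.26 on the log2 scale, most in siUHRF1. All 8 siRNA arrays lay on 1 slide, with mock in row 1, TSA in row 2, siCONT in columns 1 and 2 and siUHRF1 in columns 3 and 4, so position on the slide and treatment cannot be told apart. The array of 5-aza-dC came from a different slide and scan, its 75th percentile signal was 822 against 245 to 338 on the others, and it had no siRNA, so these differences and the drug cannot be told apart either. Of 8 epithelial and colorectal markers, KRT8, KRT18 and CDX2 were well above background on every array, and CDH1, VIL1 and LGALS4 on none. The summed level of the 8, relative to the 75th percentile, was 49.98 to 50.44 in siCONT and 76.8 to 93.9 in siUHRF1 + TSA. Some markers of other cells were higher in the combination. Of 4 fibroblast markers 3 were called higher, where 15.0% of all probes were. COL1A2 and DCN were tested only because they were well above background on both siUHRF1 + TSA arrays, so this count cannot stand for the list. The 4 summed to 0.227 to 0.259 in siCONT, 0.282 to 0.463 in siUHRF1, 0.5325 to 0.5577 in siCONT + TSA and 0.8 to 1.02 in siUHRF1 + TSA. Of 3 endothelial markers 2 were tested and 1, VWF, was called higher, as it was with UHRF1 depletion alone and with TSA alone. CDH5 was not called and read -3.38 in siCONT and -3.88 in siUHRF1 + TSA. The 3 summed to 0.158 to 0.162 in siCONT, 0.158 to 0.193 in siUHRF1, 0.217 to 0.245 in siCONT + TSA and 0.548 to 0.681 in siUHRF1 + TSA. The 4 leukocyte markers summed to 0.117 to 0.192 on the siRNA arrays and 0.994 with 5-aza-dC. Their part in the results was not tested.

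Signals below are log2 values relative to each array's own 75th percentile, so that dim probes are negative, and "well above background" is the scanner software's flag. A probe was tested when it carried this flag on both arrays of at least 1 group, or on the 5-aza-dC array, and a call is an adjusted p (limma, Benjamini-Hochberg over all probes tested) below 0.05. Of the 9 probes, 7 were below background on both siCONT arrays. None of the 7 passed background on both siUHRF1 arrays (1.40% of the 26984 probes below background in siCONT were) or on both siCONT + TSA arrays (0.852%). In siUHRF1 + TSA 2 of the 7 were (3.12%), 1 probe each of RUNX3 and CRABP1, and 5 were with 5-aza-dC (14.5%).

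**Figure D2:**
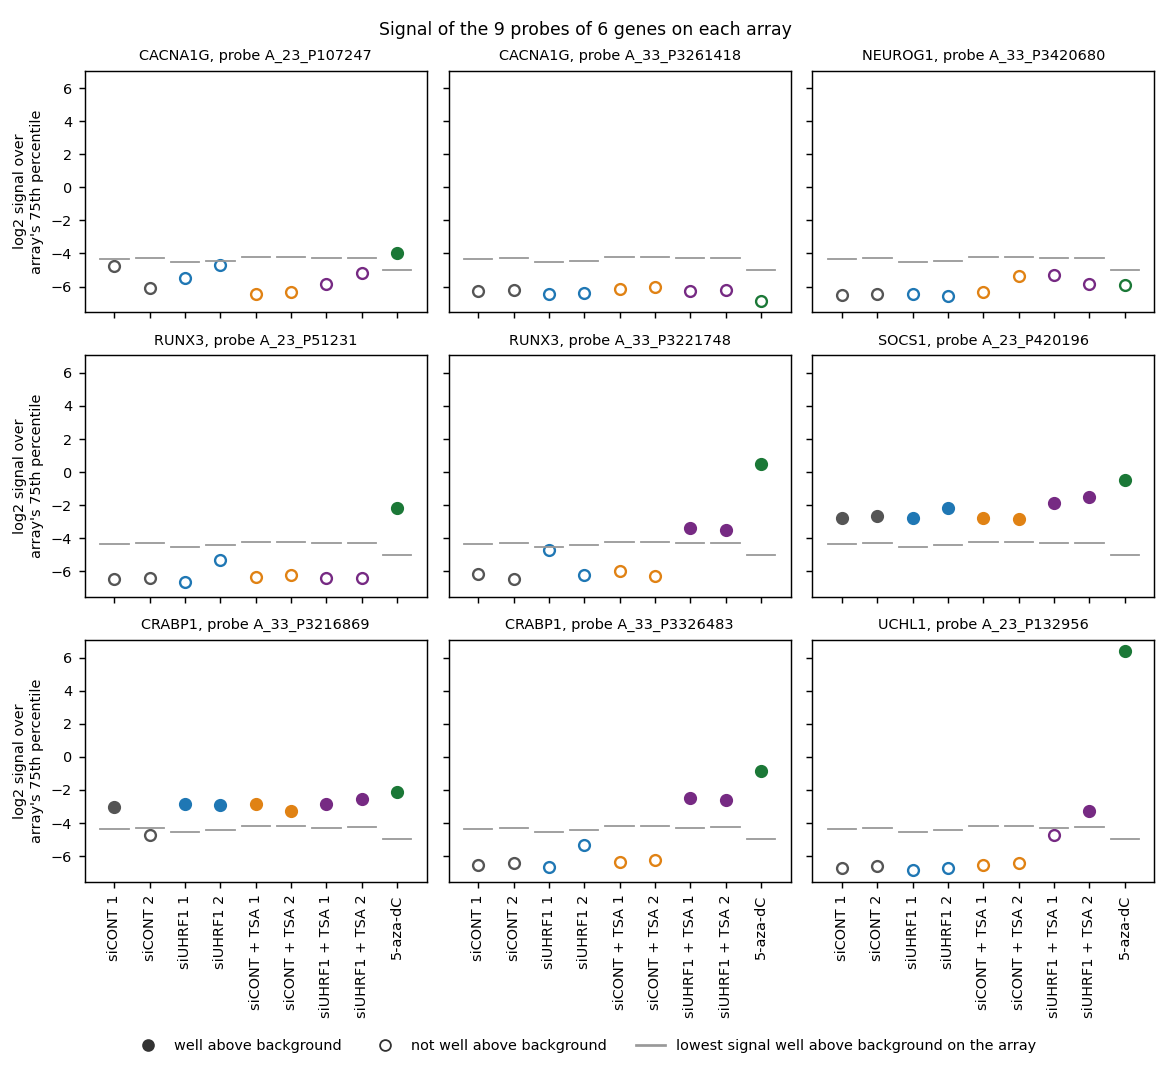
Log2 signal over the array's 75th percentile (y axis) of the 9 probes on each of the 9 arrays (x axis), with filled circles where the probe was well above background, open circles where it was not, and a grey bar at the lowest signal well above background on that array. RUNX3 A_33_P3221748 and CRABP1 A_33_P3326483 rise above the bar in siUHRF1 + TSA and with 5-aza-dC, UCHL1 on 1 of the 2 arrays of siUHRF1 + TSA, and SOCS1 lies above it throughout.

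Among the siRNA groups 4 of the 9 probes were tested. UHRF1 depletion alone and TSA alone called none of them, where 0.518% and 6.46% of the 23730 probes tested were called higher, and none had an unadjusted p under 0.05 either, in limma or by the methods' t-test. The combination against siCONT called 3 higher, against a background of 15.0%. UHRF1 depletion under TSA (siUHRF1 + TSA against siCONT + TSA) called 2 higher, against 2.96%, and TSA under UHRF1 depletion (siUHRF1 + TSA against siUHRF1) called 2 higher, against 9.95%. In the latter comparison the numbers mark the same siRNA in both groups, and a block of replicate or siRNA called 3, SOCS1 in addition. The interaction term in limma, how much more UHRF1 depletion did under TSA than under mock, called none of the 4, against 0.358% of all probes called higher, and 3 had an unadjusted p under 0.05. With 5-aza-dC 7 of the 9 were tested and 5 were called higher, against 24.1%. These counts cannot stand for all 9 probes, because RUNX3 A_33_P3221748 and CRABP1 A_33_P3326483 passed the filter only through siUHRF1 + TSA, where they were high, and 3 of the 7 passed only through the 5-aza-dC array. A background correction by normexp with an offset of 50 left none of the 3 calls in the combination.

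**Figure D3:**
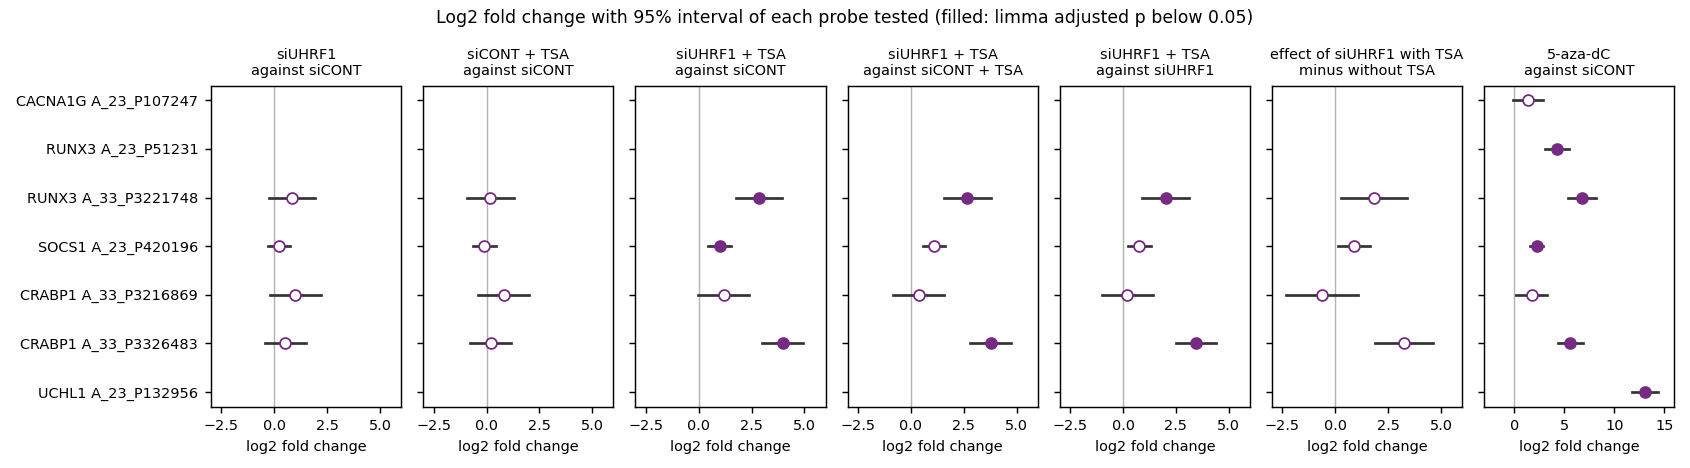
Log2 fold change (x axis) with its 95% interval for each probe tested (y axis) in the 6 comparisons of siRNA groups and in 5-aza-dC against siCONT, filled where limma's adjusted p was below 0.05. Intervals of UHRF1 depletion alone and TSA alone all span 0, 3 probes are filled in siUHRF1 + TSA against siCONT and 5 with 5-aza-dC.

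RUNX3 and NEUROG1 encode transcription factors, RUNX3 a runt-domain factor that acts downstream of TGF-beta in the gut and NEUROG1 a proneural basic helix-loop-helix factor. RUNX3 transcript was detected with the combination and was far higher with 5-aza-dC, on 1 of 2 probes. RUNX3 A_33_P3221748 read -6.19 and -6.44 in siCONT, -6.00 and -6.27 in siCONT + TSA, -4.71 and -6.23 in siUHRF1, -3.41 and -3.52 in siUHRF1 + TSA, and 0.47 with 5-aza-dC. Both arrays of the combination were above all 6 other siRNA arrays, and since RNA of whole cultures was measured, more cells with the transcript and more transcript per cell cannot be told apart, here and below. Of the rest, the siUHRF1-1 array was the highest, and it was below background. The change against siCONT was 2.85 (95% interval 1.75 to 3.95, adjusted p = 0.00834, limma), and since siCONT was below background it amounts to at least 1.81-fold. Against siCONT + TSA it was 2.67 (adjusted p = 0.0335, limma) and against siUHRF1 2.01 (adjusted p = 0.0350, limma). Among the siRNA groups this probe passed the filter only through siUHRF1 + TSA, where it was high, so these p-values are not independent support. In the order of group means siCONT, siCONT + TSA, siUHRF1, siUHRF1 + TSA, the first 3 did not differ beyond their spread, with adjusted p of 0.691 for siUHRF1 against siCONT. With 5-aza-dC RUNX3 was at least 27.7-fold above siCONT (fitted change 6.79, adjusted p = 0.000356, limma).

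The second RUNX3 probe, A_23_P51231, did not detect the transcript in siUHRF1 + TSA. It read -6.42 and -6.37 there and -6.48 and -6.38 in siCONT, below background on all 8 siRNA arrays, and -2.19 with 5-aza-dC, where it was at least 4.38-fold above siCONT (log2 change 4.24, adjusted p = 0.00113, limma, and under normexp 0.79, adjusted p = 0.145). The 2 probes differed on the combination and both were called higher with 5-aza-dC. Of the RUNX3 calls, that against siCONT was lost without siCONT replicate 2 (2.72, adjusted p = 0.0576) and under normexp (0.49, adjusted p = 0.281). The calls against siCONT + TSA and siUHRF1 were lost without any 1 array of siCONT, siCONT + TSA or siUHRF1 + TSA, with changes of 2.54 to 2.81 and 1.95 to 2.06, and under quantile normalization (adjusted p = 0.0514 and 0.0711). Without siUHRF1 replicate 2, which leaves the siUHRF1-1 array, the change of siUHRF1 against siCONT was 1.61. Without siUHRF1 replicate 1 the interaction was 2.59. On A_33_P3221748 all readings in siCONT, siUHRF1 and siCONT + TSA were below background.

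NEUROG1 was not well above background on any of the 9 arrays. Its probe read -6.51 and -6.42 in siCONT, -6.45 and -6.59 in siUHRF1, -6.32 and -5.39 in siCONT + TSA, -5.28 and -5.86 in siUHRF1 + TSA and -5.92 with 5-aza-dC. All 9 readings lay under the lowest signal called above background on their array, so neither an order of the groups nor a fold is given.

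CACNA1G encodes the pore of a T-type calcium channel, and SOCS1 an inhibitor of cytokine signaling through the JAK kinases. CACNA1G was below background on all 8 siRNA arrays on both probes. A_23_P107247 read -4.76 and -6.06 in siCONT, -5.49 and -4.70 in siUHRF1, -6.47 and -6.36 in siCONT + TSA, -5.87 and -5.20 in siUHRF1 + TSA and -4.00 with 5-aza-dC, the 1 array on which it was well above background. That is at least 1.25-fold above siCONT, but the change of 1.41 (95% interval -0.07 to 2.90, adjusted p = 0.101, limma) was not called, and the 2 siCONT arrays differ by almost as much. Without siCONT replicate 1 it was called (2.07, adjusted p = 0.0294), and under normexp it turned to -0.51. A_33_P3261418, assigned to another CACNA1G transcript record, was below background on all 9 arrays, from -6.89 with 5-aza-dC to -6.04 in siCONT + TSA.

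SOCS1 was the 1 gene with a probe well above background on every array (chr16:11348384-11348443, hg19, minus strand). It read -2.77 and -2.63 in siCONT, -2.78 and -2.19 in siUHRF1, -2.77 and -2.84 in siCONT + TSA, -1.90 and -1.53 in siUHRF1 + TSA and -0.45 with 5-aza-dC. Both arrays of the combination lay above the other 6 siRNA arrays, whereas the siUHRF1 arrays straddled siCONT. SOCS1 rose by 0.99 on the log2 scale in the combination against siCONT (95% interval 0.46 to 1.52, adjusted p = 0.0238, limma). Against siCONT + TSA the difference was 1.09 (adjusted p = 0.0560) and against siUHRF1 0.77 (adjusted p = 0.0627), neither called. TSA alone gave -0.11 (95% interval -0.64 to 0.43) and UHRF1 depletion alone 0.22 (-0.31 to 0.75), and the interaction was 0.88 (unadjusted p = 0.0288, adjusted p = 0.874, limma). With 5-aza-dC SOCS1 rose by 2.25 (adjusted p = 0.00143, limma).

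The SOCS1 calls depended on single arrays. The call against siCONT was lost without either siCONT array, either siCONT + TSA array or siUHRF1 + TSA replicate 2, with changes of 0.81 to 1.06, without a filter on dim probes (adjusted p = 0.0676) and under normexp (0.47, adjusted p = 0.247). The difference from siCONT + TSA was called without either siUHRF1 array (adjusted p = 0.0295 and 0.0284) and with a replicate block (adjusted p = 0.0432). That from siUHRF1 was called without siUHRF1 replicate 2 (1.07, adjusted p = 0.0195), with a replicate block (0.77, adjusted p = 0.0470) and with the siRNA as a block (0.77, adjusted p = 0.00666). Without siUHRF1 replicate 2 the change under UHRF1 depletion alone was -0.08.

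CRABP1 encodes a cytosolic protein that binds retinoic acid. Its transcript was detected in the combination and with 5-aza-dC on A_33_P3326483, which read -6.55 and -6.44 in siCONT, -6.66 and -5.30 in siUHRF1, -6.35 and -6.26 in siCONT + TSA, -2.48 and -2.59 in siUHRF1 + TSA and -0.88 with 5-aza-dC. The combination was above all other siRNA arrays by more than the whole range of those. The change against siCONT was 3.96 (95% interval 3.0 to 4.93, adjusted p = 0.00211, limma), or at least 3.45-fold. It was at least 3.19-fold above siCONT + TSA (log2 change 3.77, adjusted p = 0.00570, limma) and at least 3.84-fold above siUHRF1 (3.45, adjusted p = 0.00580, limma). The readings with UHRF1 depletion and control siRNA differed by 3.26 more with TSA than without (95% interval 1.89 to 4.62, unadjusted p = 0.00102, adjusted p = 0.148, limma), which was not called. All readings in siCONT, siUHRF1 and siCONT + TSA were below background, so no effect without TSA was measured. Among the siRNA groups the probe passed the filter only through siUHRF1 + TSA, where it was high, so these p-values are not independent support. Without siUHRF1 replicate 1 or 2 the difference was 2.58 and 3.94. Neither single treatment was called, at 0.51 for UHRF1 depletion and 0.19 for TSA. Without siUHRF1 replicate 1, which leaves the siUHRF1-2 array, siUHRF1 against siCONT was called (1.20, adjusted p = 0.0316), and without replicate 2 it was -0.17, in both cases with signals below background. With 5-aza-dC the transcript was at least 10.8-fold above siCONT (5.61, adjusted p = 0.000453, limma). Under normexp the 3 changes of the combination shrank to 0.87, 0.27 and 0.91 and were not called.

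The other CRABP1 probe, A_33_P3216869, gave a different pattern from the same transcript record. It was well above background on 8 of the 9 arrays and read -3.06 and -4.71 in siCONT, -2.88 and -2.92 in siUHRF1, -2.84 and -3.29 in siCONT + TSA, -2.83 and -2.56 in siUHRF1 + TSA and -2.13 with 5-aza-dC. The siCONT replicate 2 array was the low one, and without it the siRNA groups differed little. The change in the combination was 1.19 (95% interval -0.02 to 2.40, adjusted p = 0.137, limma) and with 5-aza-dC 1.75 (adjusted p = 0.0621, limma), neither called. Without siCONT replicate 1, these were called (2.02, adjusted p = 0.0121, and 2.58, adjusted p = 0.00316). Without siCONT replicate 2, TSA alone moved from 0.82 to -0.01 and the interaction from -0.62 to 0.21.

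UCHL1 encodes a ubiquitin C-terminal hydrolase that is abundant in neurons. Its probe was below background in siCONT (-6.70 and -6.61), siUHRF1 (-6.85 and -6.75) and siCONT + TSA (-6.53 and -6.41). In siUHRF1 + TSA it read -4.71 on the siUHRF1-1 array, below background, and -3.26 on the siUHRF1-2 array, well above background. With 5-aza-dC it read 6.39. The 2 combination arrays were the highest of the siRNA arrays and apart from them, yet UCHL1 was not tested there, since only 1 of 2 arrays measured it. The bound against siCONT was at least 1.26-fold over both arrays and rested on replicate 2, without which it fell under 1. Fitted without a filter on dim probes, the change was 2.67 against siCONT (adjusted p = 0.0293, limma), 2.81 against siUHRF1 (adjusted p = 0.0379) and 2.49 against siCONT + TSA (adjusted p = 0.0935). On the 5-aza-dC array UCHL1 was at least 1680-fold above siCONT, with a fitted change of 13.04 (95% interval 11.74 to 14.35, adjusted p = 2.29e-05, limma). The fitted change stayed between 9.15 and 13.26 in every alternative fit, with no spot saturated, and its lowest value is below that bound.

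With 5-aza-dC the median change of all probes was 0.01. Scaling on the spike-in probes in place of the 75th percentile moved that median by -1.30 and left 10.6% of the called probes higher, against 49.4%. The same 5 probes of RUNX3, SOCS1, CRABP1 and UCHL1 were called under that scaling.

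Values of 2 further genes of CIMP panels follow, each on 1 probe. IGF2, a fetal growth factor, was below background in siCONT (-4.86 to -4.76) and siCONT + TSA (-4.34 to -4.30), between -2.03 and -0.63 in siUHRF1, 2.44 to 2.55 in siUHRF1 + TSA and 3.19 with 5-aza-dC. It was at least 7.96-fold above siCONT with UHRF1 depletion alone (3.48, adjusted p = 0.0285, limma) and at least 113-fold in the combination. Among the siRNA groups IGF2 passed the filter only through siUHRF1 and siUHRF1 + TSA, where it was high. The call with UHRF1 depletion alone was lost under normexp (1.35, adjusted p = 0.745, limma). CDKN2A, the gene of the cell cycle inhibitor p16, was detected in all groups and rose by 0.92 in the combination (adjusted p = 0.0335, limma) and by 4.24 with 5-aza-dC. Both were called higher with 5-aza-dC under each of the 4 other scalings, IGF2 was called in the combination under all 4, and CDKN2A under 3, not under normexp.

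Of 23 relatives of the 6 genes by family, 19 were tested among the siRNA groups, none was called in siUHRF1 against siCONT, and 2 were higher and none lower in the combination (15.0% and 8.24% of all probes, median log2 change 0.15, against 0.05 over all probes). CACNA1H, another T-type channel, was below background in siCONT and siCONT + TSA, and in the combination it was at least 2.71-fold above the first (fitted change 1.98, adjusted p = 0.00484, limma) and at least 2.5-fold above the second. Among the siRNA groups CACNA1H passed the filter only through siUHRF1 + TSA, where it was high. With 5-aza-dC it was at least 6.52-fold above siCONT. CISH, of the SOCS family, rose by 0.69 with TSA alone (adjusted p = 0.0487, limma, lost under the 4 other scalings) and by 0.89 in the combination, and with 5-aza-dC it was lower, with a change of -1.12. Under normexp the CACNA1H change in the combination was 0.44 and was not called. CACNA1I was below background in siUHRF1, and the combination was at least 1.85-fold above it (adjusted p = 0.0168, limma), a call lost under normexp and spike-in scaling. Against siCONT the combination differed by 0.16 in CACNA1I (adjusted p = 0.563, limma). With 5-aza-dC 5 of the 20 relatives tested were higher and 4 lower (24.1% and 24.8% of all probes, median -0.13). NEUROD2, a neuronal transcription factor, passed the filter only through the 5-aza-dC array and was at least 1.12-fold above siCONT there. CRABP2 (-0.91), RUNX1 (-0.76) and RUNX2 (-0.93) were lower and SOCS2 (1.03), SOCS6 (1.34) and FABP5 (0.86) higher. Under spike-in scaling 1 relative, CACNA1H, was higher and 13 were lower, and SOCS2 (-0.27) and FABP5 (-0.44) changed sign. Under that scaling 21765 of all 27173 probes tested were called, 10.6% of them higher, and the median over all probes was -1.285. SOCS6 (-0.13) and NEUROD2 (-0.35) changed sign under normexp. ATOH8, NEUROG3, SOCS3, SOCS4, SOCS5, SOCS7, CBFB, UCHL3, UCHL5 and BAP1 were well above background on every siRNA array and called in no comparison.

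**Figure D4:**
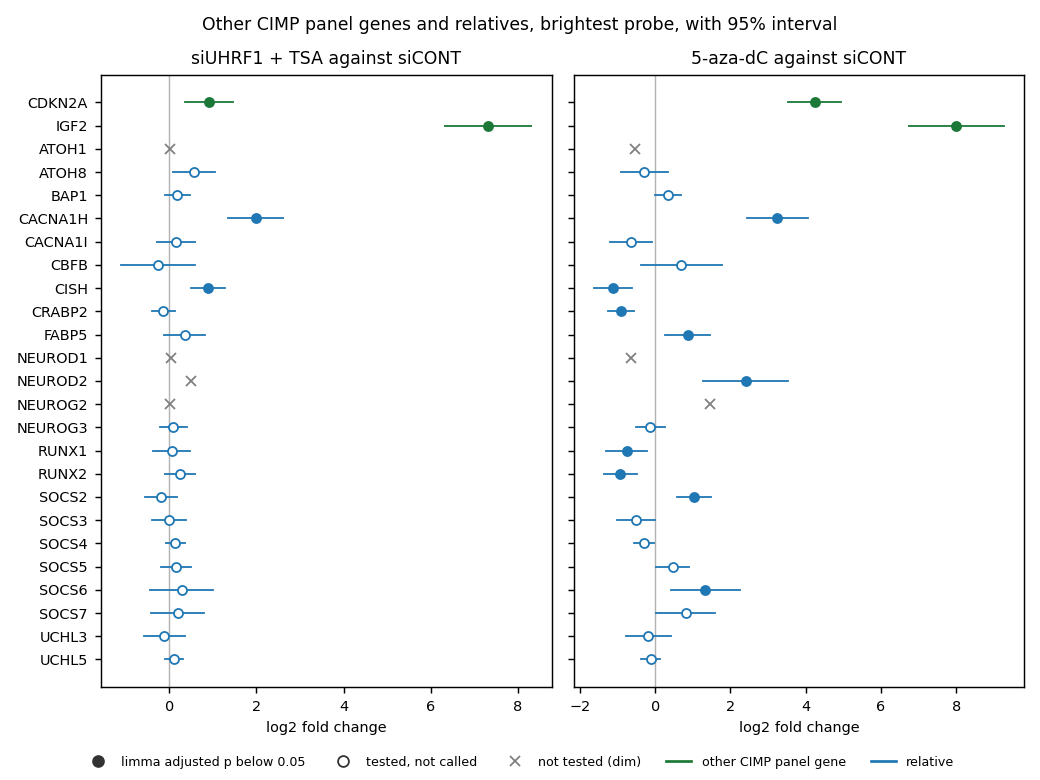
Log2 fold change (x axis) with its 95% interval for the 2 other CIMP panel genes (green) and the 23 relatives (blue), one gene per line, in siUHRF1 + TSA against siCONT and in 5-aza-dC against siCONT, with filled circles for an adjusted p below 0.05 in limma and crosses for probes too dim to be tested. IGF2 stands at 7.31 in the combination, where CACNA1H at 1.98 and CISH at 0.89 are the relatives with filled circles.

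Of the 12 neuronal genes, chosen for UCHL1 and NEUROG1, 5 were tested among the siRNA groups and 3 were higher and 1 lower in the combination, where 15.0% of all probes were called higher and 8.24% lower. With TSA alone 1 of the 5 was higher and 1 lower (6.46% and 3.94% of all probes). With 5-aza-dC 9 were tested, 7 were higher and 2 lower, against 24.1% and 24.8% of all probes. CHGA, INA, NEFL and NEFM, all among those higher, passed the filter only through the 5-aza-dC array, so this count cannot stand for the list. Among the siRNA groups SNAP25 passed it only through siUHRF1 and siUHRF1 + TSA, so the count in the combination cannot either. Of 17 JAK-STAT and retinoid genes, chosen for SOCS1 and CRABP1, 11 were tested and 3 were higher in the combination (15.0% of all probes, median -0.01, against 0.05 over all probes), and 5 of 14 were higher and 2 lower with 5-aza-dC (24.1% and 24.8% of all probes). Here ALDH1A3, CYP26A1 and CYP26B1 passed the filter only through the 5-aza-dC array, where they were high. Among the siRNA groups STRA6, which was called in the combination, passed it only through siUHRF1 and siUHRF1 + TSA, where it was high. The count in the combination therefore cannot stand for the list. Of 8 silenced genes that the study assayed by PCR, 3 were tested among the siRNA groups and 1 was higher in the combination (15.0% of all probes), and 3 of 5 were higher with 5-aza-dC (24.1%). The 3 tested, DKK1, GATA4 and NEURL, were well above background on both siCONT arrays. GATA5, SFRP1, SFRP2, SFRP5 and TIMP3 were below it there, so the count in the combination does not describe genes silent in siCONT. GATA5 and SFRP1 passed the filter only through the 5-aza-dC array, where they were high. The study assayed genes of that list by PCR in RKO, and also UCHL1 and CIMP marker genes. Neither the list nor the members are therefore independent evidence of the direction it reports.

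The genes whose probes followed each member most closely over the 8 siRNA arrays are given as a description, since all arrays share 1 slide and r mostly follows the group means. For RUNX3 A_33_P3221748 these were IL3RA, SLC5A11 and LHX2 (Pearson r = 0.984, 0.980 and 0.975), and for CRABP1 A_33_P3326483 they were PCDHA3, CACNA1A and KIF25 (0.9996, 0.9965 and 0.9965). With 5-aza-dC LHX2 stood at 1.87 and IL3RA at -6.20, so genes alike over the siRNA arrays parted there. For SOCS1 they were SNORA70D, C1orf50 and METTL6 (0.988, 0.986 and 0.985). For CRABP1 A_33_P3216869 they were RPL26, PTPN14 and ARHGAP12 (0.977, 0.936 and 0.929), and none of these was among the genes nearest the other CRABP1 probe. Between the 2 CRABP1 probes r was 0.433, and between RUNX3 A_33_P3221748 and CRABP1 A_33_P3326483 it was 0.844.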

How the data were processed

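Each array is a 1-colour SurePrint G3 Human GE v2 array, read by the authors with Agilent Feature Extraction 10.7.3.1 per the file headers. The deposited intensity of a spot is its signal after background subtraction and detrending within the array, arrays not being normalized to each other, and the value table gives this intensity rounded. The study's methods name GeneSpring GX and t tests, and give no normalization. From these, log2 intensity minus the array's 75th percentile was computed here. Of 62976 spots 4259 controls were left out, outlier spots were dropped, and spots of 1 probe were averaged. limma 3.58.1 (lmFit and eBayes, R 4.3.3) was run on the 4 siRNA groups together (8 arrays), and on all 9 arrays for 5-aza-dC against siCONT, where the lone array is assumed to vary like the groups, as is the array that remains when 1 of a group is left out. It tested 23730 and 27173 probes well above background on every array of at least 1 group, with Benjamini-Hochberg adjustment over all of them. Where a group was below background on all its arrays, the fold is a bound, the bright group's mean over the dim group's mean of, per array, the higher of the lowest signal well above background and the probe's own. Each bound applies to the 75th percentile scaling only, and fitted changes under the alternatives could be smaller than it. The share of probes well above background was 43.6% to 46.6% in the siRNA groups and 51.6% with 5-aza-dC, and the number of arrays limits the precision. Alternatives were the background correction (normexp, offset 50), normalization (quantile, median of detected probes, spike-in), filter, model, prior, value table, the methods' t-test and each array left out. Genes named are all 6 members, other CIMP panel genes, relatives that were called or well above background on every siRNA array, and for each member probe tested in the siRNA arrays the 3 gene symbols with the highest Pearson r. Further list genes are named where their passing of the filter is described. Some genes of these lists are not reported here and are left out of the counts. Members and lists were chosen with earlier results of these data known. Replicate numbers paired siUHRF1 and siUHRF1 + TSA, where per the labels they mark the same siRNA and deviations of same-numbered arrays correlated at 0.466. They did not pair the other groups, with correlations of -0.047 to 0.080. Scripts were tested on simulated data. Figures were drawn with matplotlib 3.10.9.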

Additional observations from a re-analysis of the deposited data

Results flagged for a closer look

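In UCHL1 both siUHRF1 arrays (-6.85 and -6.75) read below both siCONT arrays (-6.70 and -6.61), and both siUHRF1 + TSA arrays (-4.71 and -3.26) read above both siCONT + TSA arrays (-6.53 and -6.41). All 4 readings without TSA were below background, so no decrease was measured there, and with TSA only siUHRF1 + TSA replicate 2 was well above background. The readings differ by 2.63 more on the log2 scale with TSA than without, which is not a measured effect, and this difference was not tested.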

How the results depend on the processing

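Of 634 values of single probes recomputed under an alternative, 559 kept their direction and side of the threshold, 40 lost their call, 22 gained one and 13 turned sign. With the normexp background correction no member probe was called in siUHRF1 + TSA against siCONT (0 in place of 3), siCONT + TSA (0 in place of 2) or siUHRF1 (0 in place of 2). The stricter filter, which leaves fewer members tested, gave 1, 0 and 0 there and 3 in place of 5 with 5-aza-dC. Without a filter 1 probe was called against siCONT + TSA. Against siUHRF1 1 was called under quantile normalization, in a fit of only the groups compared and by the methods' t-test without adjustment, and spike-in scaling called 1 in the interaction of UHRF1 depletion with TSA. The methods' t-test with adjustment called 1, 0 and 0 in the comparisons of the combination with siCONT, siCONT + TSA and siUHRF1. With a replicate block the counts were 0, 0, 3, 3, 3 and 0 in siUHRF1 and siCONT + TSA against siCONT, the combination against siCONT, siCONT + TSA and siUHRF1, and the interaction. Leaving out 1 array gave 0 to 1, 0 to 0, 1 to 4, 1 to 3, 1 to 3 and 0 to 2 calls in the same order, and 5 to 7 with 5-aza-dC. Signs turned under normexp for CACNA1G A_23_P107247 with 5-aza-dC (-0.51), CRABP1 A_33_P3216869 (-0.36) and RUNX3 A_33_P3221748 (-0.16) against siCONT + TSA, RUNX3 A_33_P3221748 in the interaction (-0.16), CRABP1 A_33_P3326483 in siUHRF1 (-0.039) and SOCS1 with TSA alone (0.34). With TSA alone they also turned for RUNX3 A_33_P3221748 under quantile (-0.013) and spike-in scaling (-0.014) and for CRABP1 A_33_P3326483 under spike-in scaling (-0.003). Without siCONT replicate 2 CRABP1 A_33_P3216869 turned in the interaction (0.21) and with TSA (-0.007), where the values without 1 array ran from -1.446 to 0.211 and from -0.007 to 1.65. Without siUHRF1 replicate 2 CRABP1 A_33_P3326483 (-0.168, up to 1.196 without replicate 1) and SOCS1 (-0.077, up to 0.514) turned in siUHRF1. The cause was not tested. Leaving out 1 array also changed the number of calls over all probes in every comparison. Changes in the member counts in those fits therefore do not single out these probes. Where the array left out belonged to a group of 2, only 1 remained in that group. Over all probes, normexp cut the calls from 132 to 9 in siUHRF1, 2469 to 418 with TSA, 5514 to 1693, 839 to 92 and 3671 to 799 for the combination against siCONT, siCONT + TSA and siUHRF1, and 90 to 6 in the interaction, and spike-in scaling raised them from 13283 to 21765 with 5-aza-dC. The siRNA block raised the first 5 to 335, 6756, 9850, 2675 and 7943. No filter gave 668 with TSA, 1890 against siUHRF1 and 21810 with 5-aza-dC, and the stricter filter 489 against siCONT + TSA and 5 in the interaction. A trended prior gave 1 in the interaction. A fit of only the groups compared gave 38 in siUHRF1, 9929 with TSA and 647 against siUHRF1. The methods' t-test gave 1847, 9811 and 3634 without adjustment in siUHRF1, with TSA and against siCONT + TSA, and 0, 4344, 246, 0 and 1 with it. Of the called probes 62.1% were higher with TSA, against 31.0% under spike-in scaling (median shift -0.19) and 49.0% under normexp. For the combination 64.5% were higher against siCONT (52.9% under quantile, 51.3% under spike-in scaling, shift -0.13) and 64.3% against siUHRF1 (51.6% and 45.0%, shift -0.16). In siUHRF1 93.2% were higher (77.8% under normexp), and with 5-aza-dC 49.4% (33.1% under normexp, shift -0.30, and 10.6% under spike-in scaling). A slide or scan block could not be fitted, because the 5-aza-dC array is alone on its slide. Replicate and siRNA blocks and the t-test were not run for 5-aza-dC, which has 1 array without siRNA. Signals below background limit what can be said of NEUROG1, CACNA1G and UCHL1 in the siRNA groups.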

Other observations

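Genes of the lists around these members are named here after their values were seen. Among retinoid genes, STRA6, a receptor that takes up retinol, was below background in siCONT, siCONT + TSA and with 5-aza-dC, and well above background on all 4 arrays with UHRF1 depletion. It was at least 1.84-fold above siCONT in siUHRF1 (adjusted p = 0.0634, limma, not called) and at least 1.72-fold in siUHRF1 + TSA (adjusted p = 0.00772, limma), and the latter differed from siUHRF1 by -0.10 (adjusted p = 0.858, limma). Among the siRNA groups STRA6 passed the filter only through siUHRF1 and siUHRF1 + TSA, where it was high. ALDH1A3, which makes retinoic acid, and CYP26A1, which degrades it, were below background in siCONT and siUHRF1 + TSA and at least 12.6-fold and 15.8-fold above siCONT with 5-aza-dC (adjusted p = 4.06e-06 and 9.44e-05, limma). Among JAK-STAT genes, STAT5A (0.46, adjusted p = 0.0356, limma) was higher in the combination and STAT5B lower with 5-aza-dC (-1.39, adjusted p = 0.00248, limma).

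Among neuronal genes, TUBB3, a neuronal tubulin, rose by 1.43 with TSA alone (adjusted p = 0.00443, limma), by 1.98 in the combination (adjusted p = 0.00018, limma) and by 1.40 with 5-aza-dC. MAP2, a microtubule-associated protein, rose by 1.47 in the combination (adjusted p = 0.0181, limma), stood at 0.97 with TSA alone (adjusted p = 0.0921, limma), and with 5-aza-dC it was below background, at least 3.87-fold lower than in siCONT (adjusted p = 0.00163, limma). ENO2, a neuronal enolase, was lower with TSA alone (-0.50, adjusted p = 0.0330, limma), in the combination (-0.85) and with 5-aza-dC (-0.86). MAP2 and ENO2 were the 2 neuronal genes called lower with 5-aza-dC. Of the 9 tested there 7 were higher, a count that cannot stand for the list, as given above.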
